A study of Homo sapiens with 14 samples.

Results

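The knockdown of MECOM in OVCAR4 cells was compared with non-targeting controls across 21032 genes. OVCAR4 is an established human cell line of high-grade serous ovarian cancer. The comparison used 6 of the 14 libraries of the series, chosen by the siRNA pool named for each library. In the group siMECOM, 2 libraries came from cells given a Dharmacon pool of small interfering RNAs (siRNAs) against MECOM. In the control groups, 2 libraries (siNT1) came from cells given a commercial non-targeting pool and 2 (siNT2) from cells given a custom non-targeting pool. An siRNA directs the degradation of transcripts that match it. All groups received 120 nM of siRNA by reverse transfection of 300000 cells, with a medium change after 24 hours and total RNA taken at 72 hours. The 14 libraries also hold groups of 2 given pools against PAX8, SOX17, WT1, or PAX8 and SOX17 together (siDual). All came from the same line, and every siMECOM library received the same pool, so a response shared by several MECOM pools or several lines was not measured.

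MECOM encodes a zinc-finger transcription factor with a long form, MDS1-EVI1, that carries a PR domain and a short form, EVI1, that lacks it. EVI1 is known as a driver of myeloid leukaemia with rearrangement of 3q26, a region that is also commonly gained in serous ovarian carcinoma. It binds GATA-like and ETS-like motifs, recruits corepressors such as CTBP1, and is known to interfere with SMAD3 in TGF-beta signalling. In the tubal and ovarian serous lineage MECOM is expressed together with PAX8 and SOX17, and the series, by its title, concerns the prediction of master transcription factors in cancer.

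The cells carried several epithelial and serous markers, while others were low. The epithelial keratins KRT8 and KRT18, whose genes overlap, and KRT7 were among abundant transcripts in both groups, with KRT7 at 1748 and 1559 CPM in the siMECOM libraries, against 1676, 1376, 1618 and 1723 CPM in the control libraries. MUC16, which encodes the CA125 antigen, was at 306 and 304 CPM in the siMECOM libraries, against 209, 142, 229.6 and 177 CPM in the control libraries. EPCAM, an epithelial adhesion molecule, was at 199 and 189.5 CPM in siMECOM, against 214 to 233 CPM in the controls. The mesothelin gene MSLN was low, at 0.286 and 0.526 CPM in siMECOM, against 0.778 to 1.01 CPM in the controls, and WT1 was also low. The reads assigned to genes numbered 43441834 and 47205827 in the siMECOM libraries and 40832825 to 49059114 in the control libraries. The share of reads on mitochondrially encoded genes was 8.58 to 9.70% in siMECOM, against 5.34 to 6.13% in the controls, and it was 7.91 to 10.98% in the other knockdown groups. Reads on ribosomal RNA genes made up 0.827 to 1.07% in siMECOM, against 0.612 to 0.712% in the controls. The part of these shares in the results below was not tested.

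MECOM itself (ENSG00000085276, chr3:169083499-169663618, - strand, hg38) was the first check of the labels. It was at 8.76 and 16.4 CPM in the siMECOM libraries, against 131, 130.1, 133 and 125 CPM in the control libraries (CPM are read counts normalised to library size by edgeR's TMM scaling). Both siMECOM libraries lay far below all 4 control libraries, and siMECOM replicate 1 was the lower of the pair. The log2 fold change was -3.36 ± 0.16 (standard error) with an adjusted p of 8.04e-12 (edgeR quasi-likelihood test, Benjamini-Hochberg over all tested genes). Fold changes below are log2, siMECOM minus the mean of siNT1 and siNT2, and a gene was called to have changed at an adjusted p under 0.05.

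The other factors of the series moved in different ways. SOX17, a factor of endoderm, endothelium and the serous lineage, was at 239.8 and 219 CPM in the siMECOM libraries, against 114, 104, 105.2 and 119 CPM in the control libraries, and its log2 fold change was 1.05 ± 0.09 (adjusted p = 2.05e-08). Both siMECOM libraries were above all controls. PAX8, the paired-box factor of the Müllerian duct, was at 183 and 181 CPM in the siMECOM libraries, against 196, 192, 206 and 225 CPM in the control libraries. Its libraries also did not overlap, but its log2 fold change of -0.17 ± 0.07 did not pass (adjusted p = 0.0725), and it passed under 6 of the 16 alternatives run, at -0.24 to -0.19. WT1, a factor of mesothelium and serous carcinoma, was at 0.506 and 0.779 CPM in the siMECOM libraries, against 0.330, 0.430, 0.421 and 0.396 CPM in the control libraries, and it did not pass either (adjusted p = 0.0862).

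**Figure D1:**
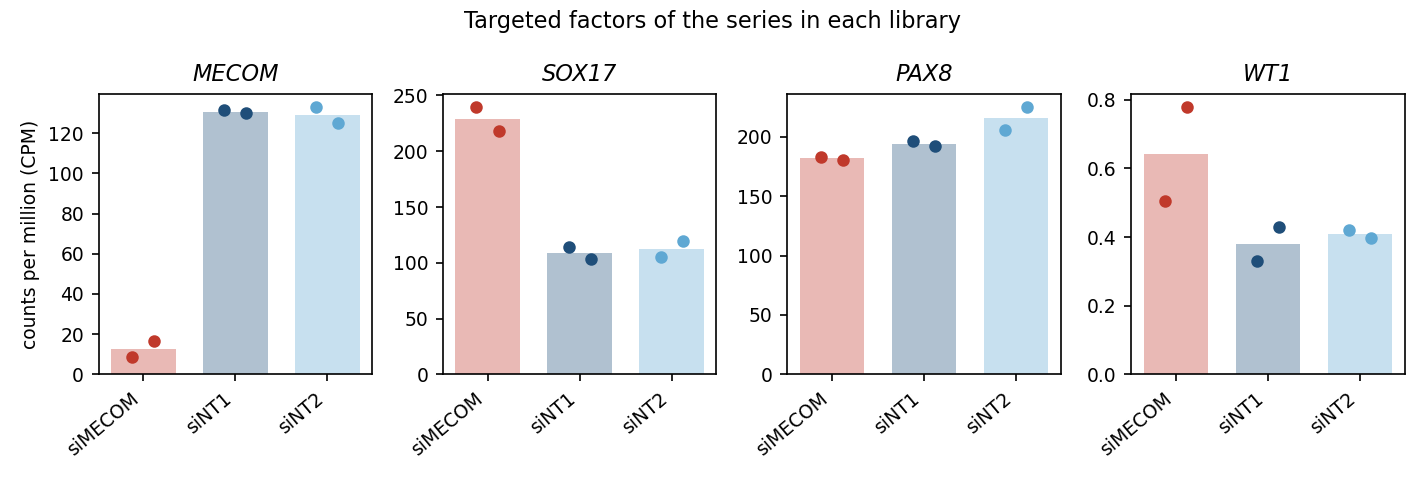
Normalised read counts (CPM) of the 4 targeted factors of the series (y axis, linear from 0) in siMECOM, siNT1 and siNT2 (x axis), with a point for each library and a bar for the mean of 2. MECOM was at 8.76 and 16.4 CPM in siMECOM against 125 to 133 CPM in the controls, and SOX17 stood above all controls.

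Across the transcriptome the response was broad. Of 21032 genes tested, 6857 were called, which is 32.6%. Of these, 3467 (16.5% of all tested) were higher and 3390 (16.1%) were lower in siMECOM. The median log2 fold change over all tested genes was 0.01, and these shares are the background against which every count of gene-list members below is to be read. Changes of at least 2-fold were fewer, with 968 genes higher and 451 lower, and at 4-fold there were 255 and 99. Both siMECOM libraries lay above all 4 controls in 5248 genes (25%) and below them in 5144 (24.5%). The control pools differed from each other in 63 genes, of which 41 were also called between siMECOM and the controls. The count of calls rested on both siMECOM libraries: without replicate 2 of siMECOM, 2198 genes were higher and 1898 lower. RNA came from whole cultures, so fewer cells that express a gene and less of its RNA per cell cannot be told apart in any of these values.

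Among protein-coding genes that averaged 1 or more in log2 CPM over all libraries, siMECOM included, the largest increase was in FN1. This gene encodes fibronectin, an adhesive glycoprotein of the extracellular matrix. It was at 51.0 and 78.0 CPM in the siMECOM libraries, against 1.44, 1.64, 2.02 and 1.496 CPM in the control libraries, a 39.0-fold difference (log2 5.28 ± 0.16). Every control library was far below both siMECOM libraries. Keratins of stratified epithelia came next. KRT13, a keratin of mucosal squamous epithelium, was at 27.2 and 28.9 CPM in the siMECOM libraries, against 2.26, 1.86, 1.78 and 1.65 CPM in the control libraries (log2 3.90 ± 0.13). An unnamed gene on the opposite strand of KRT13 moved with it, and without strand information their reads cannot be told apart. KRT6A, a keratin of wound and stress responses, was at 53.2 and 59.2 CPM in the siMECOM libraries, against 6.86, 5.999, 2.04 and 2.66 CPM in the control libraries. Its log2 fold change was 3.86 ± 0.18, but the control pools themselves differed, and it was 3.13 against siNT1 alone and 4.58 against siNT2 alone. KRT6A also has close paralogs, so its reads may be split among copies.

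The other leading increases had varied roles. OXTR, the oxytocin receptor, was at 24.04 and 20.2 CPM in the siMECOM libraries, against 1.58, 1.56, 2.38 and 1.69 CPM in the control libraries (log2 3.62 ± 0.14). LMCD1, a LIM-domain cofactor, was at 103 and 79.8 CPM in the siMECOM libraries, against 10.5, 9.26, 9.82 and 9.02 CPM in the control libraries (log2 3.24 ± 0.11). DCBLD2, a transmembrane receptor with a CUB domain, was the most abundant of these genes. It was at 601 and 785 CPM in the siMECOM libraries, against 85.3, 93.0, 96.4 and 86.5 CPM in the control libraries (log2 2.94 ± 0.12), and ST3GAL6 on the opposite strand overlaps it. SLCO2A1, a prostaglandin transporter, reached a log2 fold change of 3.19 ± 0.17 and SLC1A1, a glutamate and cysteine transporter, 2.80 ± 0.12. ABCA4, a retinoid transporter of photoreceptors, rose by 2.57 ± 0.12 and ABAT, which breaks down GABA, by 2.33 ± 0.13. MYL7, an atrial myosin light chain, was at 6.76 and 3.51 CPM in siMECOM, against 0.462 to 0.825 CPM in the controls. ARHGAP31, which inactivates the GTPases CDC42 and RAC1, was at 88.8 and 92.7 CPM in siMECOM, against 16.3 to 20.2 CPM in the controls. The remaining leading genes were C6orf15 (3.81 ± 0.15), PALMD (2.78 ± 0.13) and the sialyltransferase ST6GAL2 (2.78 ± 0.10). The largest adjusted p among the 15 leading increases was 4.40e-08, and no siMECOM library overlapped a control in any of them, which the choice of these genes required.

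MECOM was itself among the 15 leading decreases. ALPP, a placental alkaline phosphatase, was at 0.176 and 0.195 CPM in the siMECOM libraries, against 5.11, 4.77, 3.77 and 4.93 CPM in the control libraries (log2 -4.62 ± 0.28). Near-identical alkaline phosphatase genes exist, so the assignment of its reads is uncertain. FAM107A, an actin-associated protein, was at 1.34 and 1.5002 CPM in the siMECOM libraries, against 22.2, 24.9, 19.8 and 22.8 CPM in the control libraries (log2 -3.97 ± 0.18). TAF3, a subunit of the general transcription factor TFIID that reads trimethylated histone H3, was at 2.82 and 3.35 CPM in the siMECOM libraries, against 23.3, 23.9, 22.9 and 25.7 CPM in the control libraries. Its libraries were tight in both groups, and its log2 fold change was -2.95 ± 0.11. FOXQ1, a forkhead factor, was at 1.03 and 1.29 CPM in siMECOM, against 6.80 to 12.7 CPM in the controls (log2 -2.88 ± 0.24).

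MUC1, the transmembrane mucin of serous and other epithelia, was at 13.3 and 10.5 CPM in the siMECOM libraries, against 80.7, 102, 63.7 and 92.3 CPM in the control libraries (log2 -2.83 ± 0.19). Another annotated gene on the same strand overlaps it. GDF15, a stress-induced cytokine of the TGF-beta superfamily, was at 49.1 and 42.1 CPM in the siMECOM libraries, against 263, 214, 323 and 291 CPM in the control libraries (log2 -2.57 ± 0.15). INHBE, an activin subunit, was at 0.991 and 0.955 CPM in siMECOM, against 5.23 to 7.54 CPM in the controls (log2 -2.68 ± 0.22). Lymphotoxin beta (LTB) fell by 3.10 on the log2 scale, the secretory-pathway pseudokinase FAM20A by 2.85 and the tetraspanin TSPAN1 by 2.55. Sugar-modifying enzymes were present too: HS3ST3A1, a heparan sulfate sulfotransferase, was at 1.23 and 0.799 CPM in siMECOM, against 4.69 to 5.74 CPM in the controls, and MGAT3, which adds a bisecting N-acetylglucosamine, was at 6.27 and 4.23 CPM in siMECOM, against 22.2 to 28.5 CPM in the controls. NLRP7, an NLR family member, was at 2.38 and 2.16 CPM in siMECOM, against 9.65 to 13.4 CPM in the controls. The largest adjusted p among these 15 genes was 2.09e-07.

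**Figure D2:**
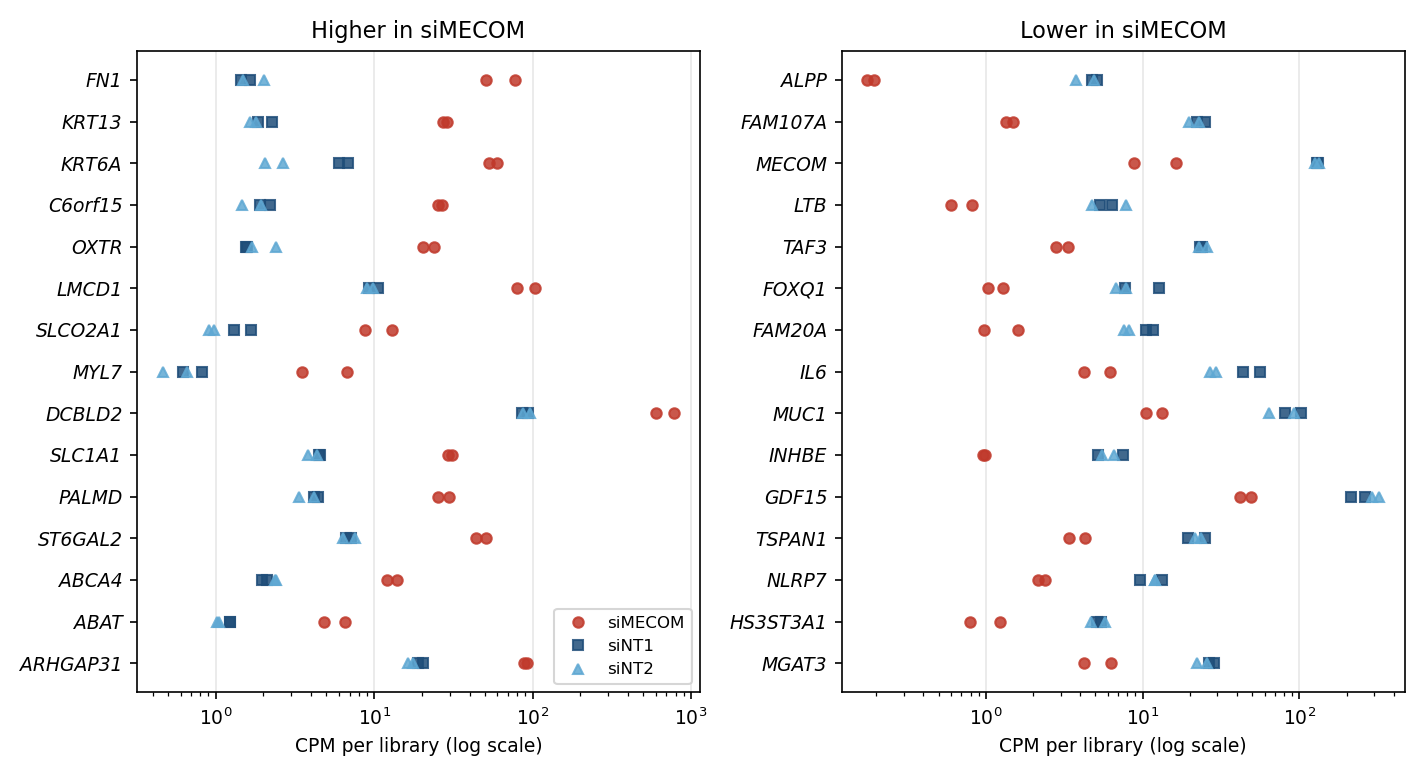
Normalised read counts (CPM) per library (x axis, log scale) of the 15 protein-coding genes with the largest increase (left) and the largest decrease (right) in siMECOM, with a point for each library of siMECOM, siNT1 and siNT2. The groups are apart in every row, which the choice of the genes required, and KRT6A shows the gap between the control pools.

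The gene lists showed where the calls were dense. The densest decreases were in lists of amino acid and unfolded protein stress, glycolysis, mitosis, serous surface markers and NF-kB cytokines, and the densest increases among lists of nuclear genes were in BMP signalling and interferon-stimulated genes. No list was tested as a set, and the counts and medians describe its members. The share called was near the 32.6% over all tested genes among endothelial markers (33.3%) and other PRDM genes (36.4%). Where 2 or fewer members of a list were called in a direction, that count often changed when 1 library was left out.

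**Figure D3:**
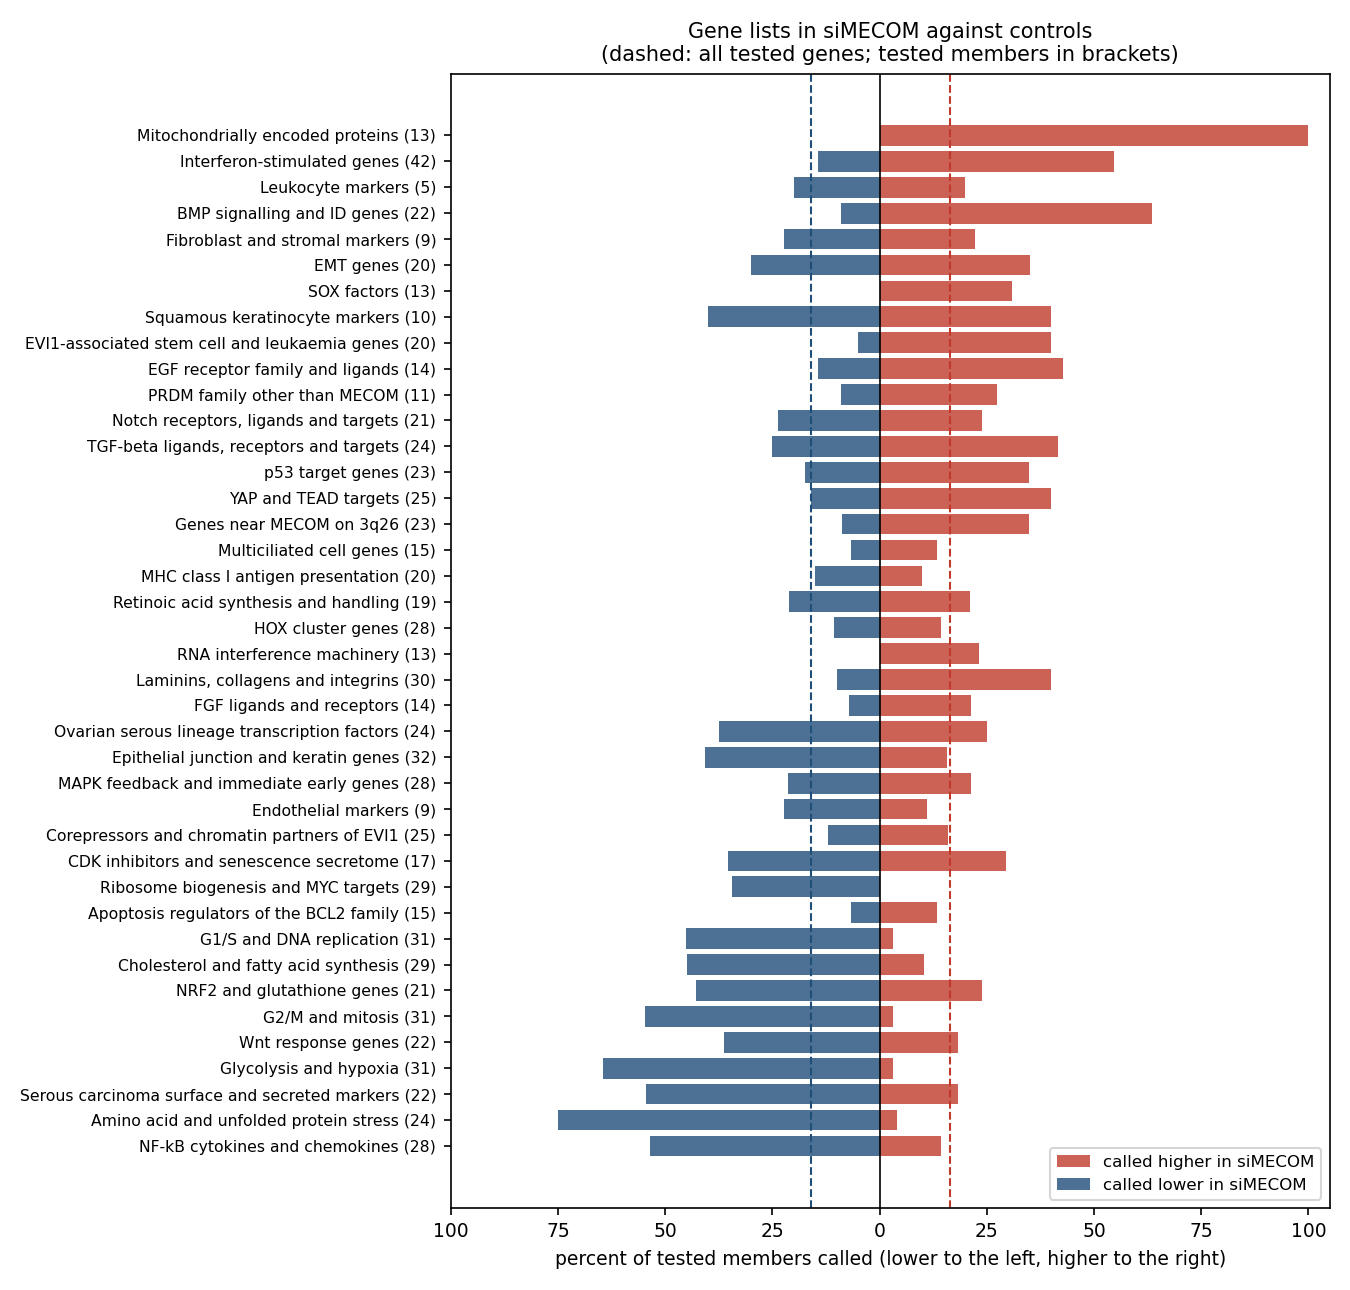
Percent of the tested members of each of 40 gene lists (y axis, number tested in brackets, ordered by median log2 fold change) called higher (right, red) or lower (left, blue) in siMECOM against controls. Dashed lines give the shares over all 21032 tested genes, 16.5% higher and 16.1% lower, and 14 of 22 BMP and ID genes were higher while 18 of 24 amino acid and unfolded protein stress genes were lower. The lists were chosen with earlier results of these data known.

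Transcription factors of the serous lineage changed in both directions. Of 24 of 25 listed factors that passed the count filter, 6 rose, 9 fell and 9 did not pass, with a median log2 fold change of -0.06; MECOM and SOX17 are members. LHX1, a LIM-homeobox factor of the kidney and Müllerian ducts, was at 0.396 and 0.273 CPM in siMECOM, against 1.07 to 1.52 CPM in the controls (log2 -1.97 ± 0.29). EHF, an epithelial ETS factor, was at 2.33 and 2.40 CPM in the siMECOM libraries, against 10.04, 8.15, 7.65 and 6.40 CPM in the control libraries (log2 -1.75 ± 0.17). BHLHE41, a basic helix-loop-helix repressor, was at 4.38 and 4.31 CPM in siMECOM, against 1.002 to 1.37 CPM in the controls and overlaps SSPN, which was also higher. IRX3, an Iroquois homeobox factor, was low in all libraries, at 0.991 and 0.740 CPM in siMECOM, against 0.120 to 0.215 CPM in the controls.

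Surface and secreted markers of serous carcinoma were more often lower. Of 22 of 24 listed markers tested, 4 rose, 12 fell and 6 did not pass, with a median log2 fold change of -0.36. SLPI, a secreted leukocyte protease inhibitor, was at 85.5 and 76.3 CPM in the siMECOM libraries, against 297, 321, 272 and 202 CPM in the control libraries (log2 -1.74 ± 0.17). WFDC2, which encodes the serum marker HE4, was at 59.2 and 53.1 CPM in the siMECOM libraries, against 135, 141, 107 and 113 CPM in the control libraries (log2 -1.13 ± 0.11). MUC1, above, showed the largest decrease of the list. MUC16 went the other way, with a log2 fold change of 0.69 ± 0.13, and so did the cancer-testis antigen PRAME at 0.65 ± 0.08 and the kallikrein KLK6 at 0.57 ± 0.10. EPCAM was called lower by 0.22 on the log2 scale, a call lost against siNT1 alone and without siMECOM replicate 2. MSLN lost its call without siMECOM replicate 1. Multiciliated cell genes, which mark the other main cell type of the tubal epithelium, were called in 20% of 15 tested, against 32.6% of all tested genes. Of the 15, 2 rose, 1 fell and 12 did not pass, with a median log2 fold change of 0.06. The calcyphosine gene CAPS was at 9.03 and 9.82 CPM in siMECOM, against 18.9 to 22.1 CPM in the controls, and the tubulin TUBB4B was at 970.5 and 914 CPM in siMECOM, against 690.4 to 757 CPM in the controls.

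Genes of epithelial-mesenchymal transition (EMT), in which epithelial cells lose junctions and gain motility and matrix, split. Of 20 of 25 listed members tested, 7 rose, 6 fell and 7 did not pass, with a median log2 fold change of 0.27. FN1 and CDH2, the N-cadherin gene, led the increases. CDH2 was at 126 and 138 CPM in the siMECOM libraries, against 25.7, 31.4, 30.7 and 32.5 CPM in the control libraries (log2 2.14 ± 0.11). ZEB2, a repressor of CDH1, rested on few reads, with 15 and 35 reads in siMECOM, against 3, 3, 1 and 4 in the controls, and its log2 fold change of 3.08 ± 0.54 was 2.45 without siMECOM replicate 2 and 3.69 without siNT2 replicate 2. LOX, which crosslinks collagen, was at 12.5 and 12.2 CPM in the siMECOM libraries, against 35.6, 37.0, 36.5 and 37.7 CPM in the control libraries (log2 -1.57 ± 0.10), and the membrane protease MMP14 was at 14.6 and 16.2 CPM in siMECOM, against 22.0 to 26.9 CPM in the controls. CDH1, the E-cadherin gene, which was chosen after its values were seen, was at 120.4 and 122 CPM in siMECOM, against 147 to 179 CPM in the controls (log2 -0.44 ± 0.08).

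Epithelial junction and keratin genes were lower more often than higher. Of 32 tested, 5 rose, 13 fell and 14 did not pass, with a median log2 fold change of -0.07. The number higher was 3 without siMECOM replicate 1 and without siNT2 replicate 1. TJP3, a tight-junction scaffold, was at 12.1 and 11.2 CPM in the siMECOM libraries, against 28.2, 29.2, 31.7 and 32.4 CPM in the control libraries (log2 -1.38 ± 0.09). P-cadherin (CDH3) was at 52.96 and 51.3 CPM in siMECOM, against 75.9 to 82.3 CPM in the controls and the polarity gene LLGL2 at 50.2 and 41.9 CPM in siMECOM, against 62.2 to 72.03 CPM in the controls. Other junction genes rose, among them the desmosomal cadherin DSC2, at 15.6 and 15.5 CPM in siMECOM, against 6.18 to 6.61 CPM in the controls, the plakophilin PKP2, with a log2 fold change of 0.51 ± 0.07, and the claudin CLDN1, with 0.40 ± 0.08. The keratins KRT7, KRT8 and KRT18 did not pass, with log2 fold changes of 0.05 ± 0.09, 0.16 ± 0.11 and 0.13 ± 0.13.

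Laminins, collagens and integrins, the basement membrane and its receptors, held 30 tested members, of which 12 rose, 3 fell and 15 did not pass, with a median log2 fold change of 0.00. COL17A1, a hemidesmosomal collagen, was at 2.58 and 3.29 CPM in siMECOM, against 0.601 to 0.821 CPM in the controls (log2 2.05 ± 0.21). ITGB8, an integrin subunit that activates latent TGF-beta, was at 263 and 333 CPM in the siMECOM libraries, against 175, 180.4, 168 and 128 CPM in the control libraries (log2 0.88 ± 0.11), and the fibrillar collagen COL5A2 was at 2.73 and 2.32 CPM in siMECOM, against 1.09 to 1.88 CPM in the controls. ITGB3 was at 70.8 and 67.6 CPM in the siMECOM libraries, against 124, 123, 167 and 143 CPM in the control libraries (log2 -0.998 ± 0.08), with an overlapping gene on the same strand. LAMA3, a laminin chain of epithelial basement membranes, was at 226 and 237 CPM in siMECOM, against 326 to 409.8 CPM in the controls, and ITGB6, the epithelial integrin subunit that also activates TGF-beta, was at 23.1 and 27.1 CPM in siMECOM, against 32.6 to 41.5 CPM in the controls. The number of members called higher in this list was 6 without siMECOM replicate 2, and the number lower was 7 without the low-count filter.

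BMP signalling genes were more often higher than lower. Bone morphogenetic proteins bind type I and type II receptors, which phosphorylate SMAD1, SMAD5 and SMAD9, and the ID genes are among the best known direct targets. Of 22 of 23 listed members tested, 14 rose, 2 fell and 6 did not pass, with a median log2 fold change of 0.33. Among ligands, BMP6 was at 38.1 and 40.8 CPM in the siMECOM libraries, against 9.07, 8.66, 7.996 and 7.31 CPM in the control libraries (log2 2.26 ± 0.08). No siMECOM library came near a control. BMP7 was lower, at 121 and 107 CPM in the siMECOM libraries, against 139, 159, 189 and 213 CPM in the control libraries (log2 -0.60 ± 0.08). Among targets, which encode inhibitors of basic helix-loop-helix factors, ID2 was at 111 and 118 CPM in the siMECOM libraries, against 38.2, 45.7, 41.8 and 47.9 CPM in the control libraries (log2 1.40 ± 0.12). ID1 and ID3 were chosen after their values were seen. ID1 was at 552 and 558 CPM in the siMECOM libraries, against 306, 283, 316 and 347 CPM in the control libraries (log2 0.83 ± 0.10). ID3 was at 139.6 and 141 CPM in the siMECOM libraries, against 61.4, 58.2, 56.9 and 64.3 CPM in the control libraries (log2 1.22 ± 0.10). All 3 were above every control library in both siMECOM libraries, which held for 25% of all tested genes. The secreted BMP antagonists differed. NOG, which encodes noggin, had 20 and 48 reads in siMECOM, against 1, 1, 1 and 4 in the controls, so its log2 fold change of 4.26 ± 0.51 rests on few reads and was 3.60 without siMECOM replicate 2. GREM1, which encodes gremlin, was at 11.3 and 14.6 CPM in the siMECOM libraries, against 10.8, 14.2, 22.6 and 25.2 CPM in the control libraries. Its siMECOM values overlapped siNT1, and the call at -0.42 ± 0.14 came from siNT2, since the log2 fold change was 0.05 against siNT1 alone. It was also lost without siMECOM replicate 1 and without siNT1 replicate 2.

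TGF-beta ligands, receptors and targets, the other main branch of the family, held 24 tested members, of which 10 rose, 6 fell and 8 did not pass, with a median log2 fold change of 0.10. The type II receptor TGFBR2 was at 339 and 367 CPM in the siMECOM libraries, against 159, 162, 167 and 162 CPM in the control libraries (log2 1.12 ± 0.08). The ligand TGFB3 was at 3.76 and 3.76 CPM in siMECOM, against 1.10 to 1.48 CPM in the controls (log2 1.47 ± 0.15). SMAD3, the receptor-activated mediator that EVI1 is known to bind, was at 35.8 and 35.1 CPM in the siMECOM libraries, against 63.7, 58.0, 66.2 and 62.7 CPM in the control libraries (log2 -0.82 ± 0.08), and the co-receptor TGFBR3 was at 12.4 and 12.5 CPM in siMECOM, against 19.3 to 22.3 CPM in the controls. INHBA, an activin subunit, was barely detected, with 13 and 19 reads in siMECOM, against 4, 3, 1 and 4 in the controls. Its log2 fold change of 2.34 ± 0.50 was 2.96 without siNT2 replicate 2.

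**Figure D4:**
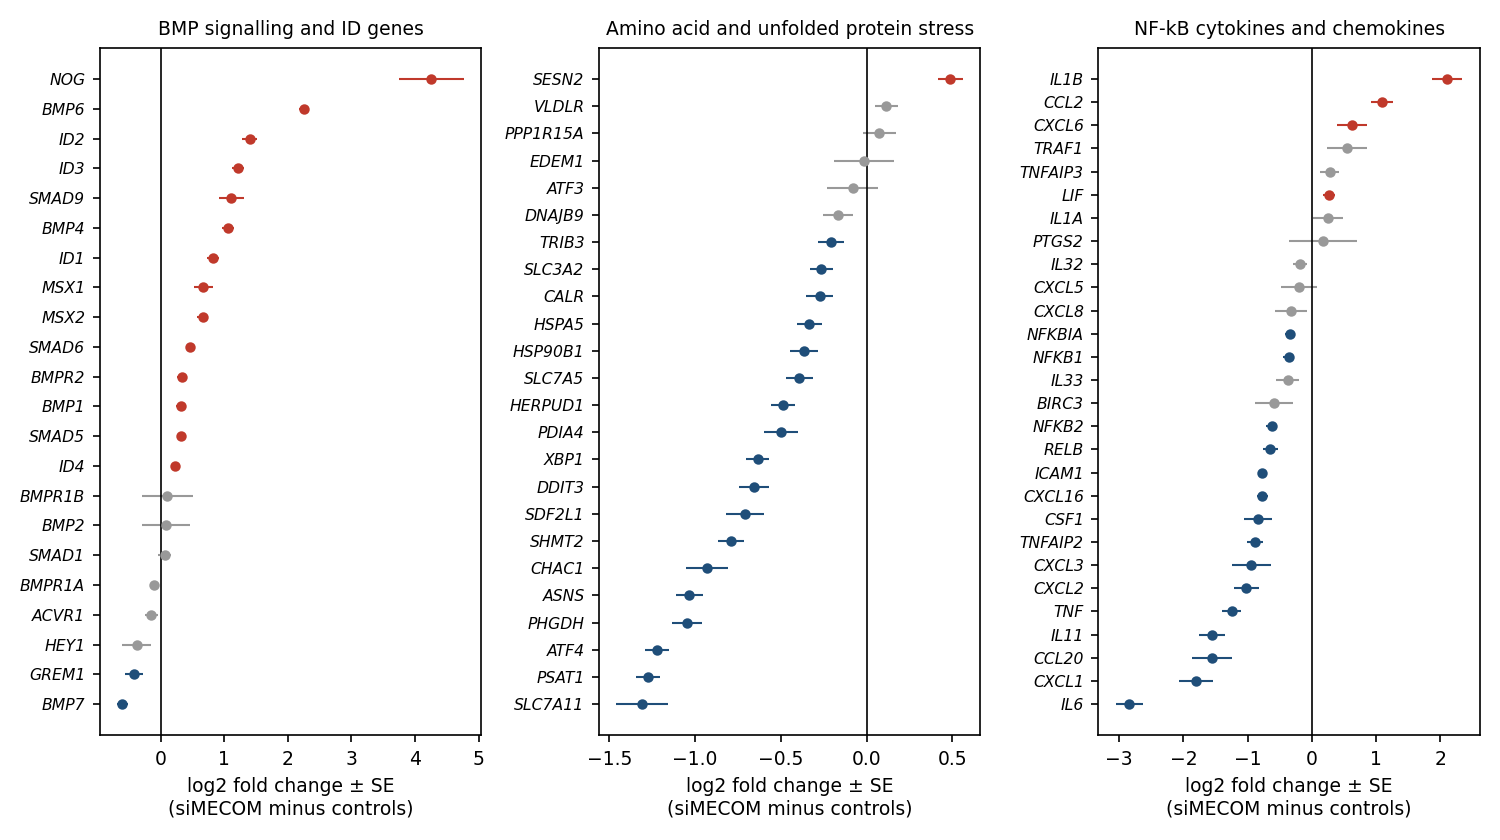
Log2 fold change with its standard error (x axis, siMECOM minus controls) for every tested member (y axis) of the lists of BMP signalling and ID genes, amino acid and unfolded protein stress, and NF-kB cytokines and chemokines. Red points were called higher, blue points lower and grey points did not pass, and the 3 lists had medians of 0.33, -0.44 and -0.48.

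Genes of the amino acid response and the unfolded protein response were the most uniformly lower list of nuclear genes. Both act in part through the transcription factor ATF4. It is translated when eIF2-alpha is phosphorylated and switches on genes of serine synthesis and amino acid transport. All 24 members were tested, and 1 rose, 18 fell and 5 did not pass, with a median log2 fold change of -0.44. ATF4 was at 143 and 154 CPM in the siMECOM libraries, against 326, 342, 362 and 358 CPM in the control libraries (log2 -1.22 ± 0.07). PSAT1, an enzyme of serine synthesis, was at 57.4 and 58.9 CPM in the siMECOM libraries, against 130.0, 145, 149.8 and 138 CPM in the control libraries (log2 -1.28 ± 0.07). SLC7A11, the cystine importer, was at 9.38 and 9.35 CPM in the siMECOM libraries, against 23.3, 18.9, 28.8 and 22.1 CPM in the control libraries (log2 -1.31 ± 0.15). In each of them every siMECOM library was below every control, which held for 24.5% of all tested genes. ASNS, asparagine synthetase, which was chosen after its values were seen, was at 122 and 118 CPM in the siMECOM libraries, against 230.4, 265, 249.7 and 238 CPM in the control libraries (log2 -1.04 ± 0.08). The member that rose was SESN2, a sestrin that restrains mTORC1 under stress, at 83.0 and 74.1 CPM in the siMECOM libraries, against 53.8, 50.5, 59.6 and 60.6 CPM in the control libraries (log2 0.49 ± 0.07).

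The promoter of ASNS holds a well studied amino acid response element, a C/EBP-ATF composite site. The 120 bases before the ASNS start in the RefSeq annotation of GRCh38.p14 (chr7:97872409-97872528, - strand) are printed 5′ to 3′ because they hold it, with the match to TGATGNAA in capitals.
ASNS: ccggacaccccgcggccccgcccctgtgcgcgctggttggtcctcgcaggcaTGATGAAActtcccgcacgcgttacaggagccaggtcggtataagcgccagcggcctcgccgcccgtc
The search for this motif, chosen after the values were seen, covered both strands of the 250 bases before the start. It matched in 4 of 22 members with a promoter sequence, in 3 of the 16 that were called lower and in 2.46% of 12861 tested genes with a sequence. The list was drawn from known genes of amino acid and unfolded protein stress, so this density is a property of the list. Its share was 18.2% over the members and 18.8% among those called lower. A match describes these letters and is not a binding site shown by these data.

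NRF2 and glutathione genes, which respond to oxidative stress, were lower more often than higher. Of 21 tested, 5 rose, 9 fell and 7 did not pass, with a median log2 fold change of -0.22. The aldo-keto reductases AKR1C2 and AKR1B10 were at 2.86 and 2.94 CPM in siMECOM, against 0.703 to 0.782 CPM in the controls, and at 3.63 and 4.54 CPM in siMECOM, against 0.825 to 1.30 CPM in the controls. They belong to a family of close paralogs, so the counts of each are uncertain. The efflux pump ABCC3 was at 14.6 and 15.4 CPM in siMECOM, against 4.31 to 5.35 CPM in the controls (log2 1.69 ± 0.11). SLC7A11, which is also on this list, and the glutathione reductase GSR, at 50.8 and 56.2 CPM in siMECOM, against 68.3 to 92.5 CPM in the controls, were lower. The haem oxygenase HMOX1 was lower by 0.83 on the log2 scale, a call lost against siNT1 alone.

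Glycolysis and hypoxia genes were mostly lower. Of 31 tested, 1 rose, 20 fell and 10 did not pass, with a median log2 fold change of -0.29. VEGFA, the angiogenic ligand, was at 49.2 and 49.6 CPM in the siMECOM libraries, against 93.9, 103, 102 and 84.1 CPM in the control libraries (log2 -0.96 ± 0.08), and LDHA, lactate dehydrogenase, was at 988 and 901 CPM in siMECOM, against 1236 to 1360.3 CPM in the controls (log2 -0.44 ± 0.08). EGLN3, an oxygen-sensing hydroxylase induced by HIF, was the member that rose, at 131 and 132 CPM in the siMECOM libraries, against 63.5, 72.7, 81.5 and 89.2 CPM in the control libraries (log2 0.79 ± 0.07). The number called lower was 11 without siMECOM replicate 2.

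Cholesterol and fatty acid genes were more often lower than higher. Among 29 tested, 3 rose, 13 fell and 13 did not pass, with a median log2 fold change of -0.21. Among the decreases, the desaturase FADS1, which overlaps FADS2, was at 101.2 and 100.6 CPM in the siMECOM libraries, against 156, 181, 154 and 158 CPM in the control libraries (log2 -0.68 ± 0.07). The elongase ELOVL6 rose by 0.71 ± 0.08 and the sterol desaturase SC5D by 0.42 ± 0.07. Ribosome biogenesis and MYC target genes had 29 tested members, of which 0 rose, 10 fell and 19 did not pass, with a median log2 fold change of -0.15, among them the transferrin receptor TFRC at -0.41 ± 0.09 and the nucleolar GNL3 at -0.39 ± 0.08. These decreases numbered 7 in the cholesterol list and 5 in the ribosome list when siMECOM replicate 2 was left out.

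NF-kB cytokines and chemokines had the lowest median of all lists. NF-kB dimers bind decameric kappa-B sites in the promoters of these genes and drive inflammatory secretion, and serous cancer cells are known to secrete several of them. Of 28 of 30 listed members tested, 4 rose, 15 fell and 9 did not pass, with a median log2 fold change of -0.48. IL6, the cytokine that signals through gp130, was at 4.20 and 6.20 CPM in the siMECOM libraries, against 56.5, 43.7, 26.9 and 29.6 CPM in the control libraries (log2 -2.84 ± 0.21). The siNT1 libraries were higher than the siNT2 libraries, and siMECOM was below both. IL6-AS1 overlaps IL6 on the opposite strand and averaged 1.97 CPM in siMECOM against 12.8 CPM in the controls. CXCL1, a neutrophil chemokine, was at 31.7 and 48.2 CPM in the siMECOM libraries, against 145, 138, 126 and 149.6 CPM in the control libraries (log2 -1.80 ± 0.26). CCL20, the ligand of CCR6, was at 1.87 and 2.51 CPM in the siMECOM libraries, against 10.02, 9.26, 3.77 and 4.99 CPM in the control libraries. Its log2 fold change was -1.56 ± 0.31, and it was -0.99 against siNT2 alone, whose libraries held less of it than those of siNT1. Not all members fell, but the number called higher was 2 without siMECOM replicate 2, without siNT2 replicate 1, against siNT1 alone, with DESeq2 and without mitochondrially encoded genes. IL1B, interleukin-1 beta, was at 2.18 and 2.01 CPM in the siMECOM libraries, against 0.354, 0.430, 0.541 and 0.638 CPM in the control libraries (log2 2.11 ± 0.24). CCL2, a monocyte chemokine, was at 38.5 and 45.6 CPM in the siMECOM libraries, against 25.3, 21.2, 16.6 and 16.6 CPM in the control libraries (log2 1.10 ± 0.17).

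Kappa-B-like letters were common in these promoters. The search was for a kappa-B decamer of GGG, any 2 bases and TTTCC, on both strands of the 250 bases before each RefSeq start, and was chosen after the values were seen. It matched in 13 of 23 members with a promoter sequence, in 8 of the 12 called lower and in 2.61% of 12861 tested genes. The list was drawn from known NF-kB targets, so this density is a property of the list. The 120 bases before the start are given 5′ to 3′ for 5 cytokine and chemokine genes that were lower, because they carry the match, in capitals. All are from GRCh38.p14, with IL6 at chr7:22727080-22727199, + strand; CXCL1 at chr4:73869273-73869392, + strand; CXCL2 at chr4:74099196-74099315, - strand; CXCL3 at chr4:74038690-74038809, - strand; and CCL20 at chr2:227813722-227813841, + strand.
IL6: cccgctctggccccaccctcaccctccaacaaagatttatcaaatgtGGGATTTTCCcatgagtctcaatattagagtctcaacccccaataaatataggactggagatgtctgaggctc
CXCL1: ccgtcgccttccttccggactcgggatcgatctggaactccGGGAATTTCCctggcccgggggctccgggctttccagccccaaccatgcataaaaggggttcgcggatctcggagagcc
CXCL2: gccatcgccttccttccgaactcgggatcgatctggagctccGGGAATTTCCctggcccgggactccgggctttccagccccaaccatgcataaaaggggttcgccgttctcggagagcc
CXCL3: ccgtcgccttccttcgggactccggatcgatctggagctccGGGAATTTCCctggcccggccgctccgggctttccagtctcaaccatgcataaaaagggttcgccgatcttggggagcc
CCL20: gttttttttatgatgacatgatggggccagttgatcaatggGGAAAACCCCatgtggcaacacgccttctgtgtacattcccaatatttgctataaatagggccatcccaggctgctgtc
The match starts 73 bases before the start in IL6, 78 in CXCL2 and 79 in CXCL1, CXCL3 and CCL20, and in CCL20 it is on the opposite strand. These distances are not particular to the 5 genes. Among other lower members of the list, a match began 81 bases before an annotated start in NFKBIA and 49 in NFKB1. In NFKB2 matches began 78 and 21 bases before different annotated starts. CXCL2, CXCL3 and CXCL1 are close paralogs whose promoters are nearly alike, so they are not independent. CXCL2 was at 1.92 and 1.81 CPM in the siMECOM libraries, against 5.07, 3.65, 3.31 and 3.23 CPM in the control libraries (log2 -1.02 ± 0.19). CXCL3 was at 1.17 and 1.13 CPM in the siMECOM libraries, against 3.13, 1.43, 2.48 and 1.83 CPM in the control libraries, and its call (log2 -0.94 ± 0.31, adjusted p = 0.0241) was lost under 5 of the 16 alternatives. CXCL2 and CXCL3 were chosen after their values were seen.

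Interferon-stimulated genes went the other way. They encode antiviral effectors switched on by interferon signalling. All 42 members were tested, and 23 rose, 6 fell and 13 did not pass, with a median log2 fold change of 0.44. SAMD9L, an antiviral factor, was at 10.4 and 11.7 CPM in the siMECOM libraries, against 5.37, 5.63, 3.67 and 5.88 CPM in the control libraries (log2 1.11 ± 0.13). OAS1, which senses double-stranded RNA, was at 20.5 and 17.0 CPM in the siMECOM libraries, against 10.4, 8.42, 8.36 and 8.54 CPM in the control libraries (log2 1.07 ± 0.12). Of the guanylate-binding protein genes, which respond mainly to interferon gamma, GBP1 and GBP5 were lower, with GBP1 at 34.5 and 33.9 CPM in the siMECOM libraries, against 66.0, 63.6, 59.7 and 68.0 CPM in the control libraries (log2 -0.91 ± 0.08) and GBP5 at 3.08 and 3.43 CPM in siMECOM, against 6.51 to 8.598 CPM in the controls (log2 -1.20 ± 0.13). GBP2, with 0.26 ± 0.09, was called higher, a call lost under 6 of the 16 alternatives, and GBP3, with 0.01 ± 0.10, did not pass, and both were chosen after their values were seen. IFIT2 was also lower (log2 -0.53 ± 0.12), with an overlapping gene on the same strand. Without siMECOM replicate 1 the number called higher was 14, and without replicate 2 the number called lower was 3. MHC class I genes were called in 25% of 20 tested, against 32.6% of all tested genes. Of the 20, 2 rose, 3 fell and 15 did not pass, with a median log2 fold change of 0.05. The chaperone CANX was at 879.9 and 887 CPM in siMECOM, against 1325 to 1499.6 CPM in the controls, and the peptidase ERAP1 at 147 and 158 CPM in siMECOM, against 109 to 118 CPM in the controls.

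Proliferation genes were more often lower than higher, by small amounts. Of 31 G1/S and replication genes, 1 rose, 14 fell and 16 did not pass, with a median log2 fold change of -0.21. Of 31 G2/M genes, 1 rose, 17 fell and 13 did not pass, with a median log2 fold change of -0.23. Cyclin E1 (CCNE1), which drives S-phase entry and is often amplified in serous carcinoma, was at 84.5 and 86.8 CPM in the siMECOM libraries, against 124, 124, 126 and 127 CPM in the control libraries (log2 -0.55 ± 0.07). Thymidylate synthase (TYMS), which overlaps ENOSF1, was at 79.1 and 76.4 CPM in siMECOM, against 104 to 120.4 CPM in the controls. Topoisomerase II alpha (TOP2A) was at 171 and 177 CPM in the siMECOM libraries, against 246, 255, 273 and 233 CPM in the control libraries (log2 -0.54 ± 0.08), the kinase AURKB at 33.5 and 31.2 CPM in siMECOM, against 40.8 to 50.6 CPM in the controls and the kinetochore gene CENPF at 121 and 124 CPM in siMECOM, against 161 to 168 CPM in the controls. Without siMECOM replicate 2 the members called lower were 6 in the G1/S list and 11 in the G2/M list, and without replicate 1 the G1/S count was 9.

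CDK inhibitors and genes of the senescence secretome were split, as 5 rose, 6 fell and 6 did not pass, with a median log2 fold change of -0.12 among 17 tested. CDKN1A, which encodes the inhibitor p21, was at 16.4 and 20.1 CPM in the siMECOM libraries, against 8.98, 9.93, 8.42 and 10.03 CPM in the control libraries (log2 0.97 ± 0.10). STC1, a secreted glycoprotein hormone, was at 50.4 and 56.6 CPM in siMECOM, against 26.7 to 32.0 CPM in the controls, and the collagenase MMP1 was barely detected, with 22 and 35 reads in siMECOM, against 6, 2, 4 and 2 in the controls. MMP1 overlaps the more abundant WTAPP1 on the opposite strand, which averaged 1.55 CPM in siMECOM against 0.456 CPM in the controls. IGFBP3, which binds insulin-like growth factors, was at 86.5 and 58.6 CPM in the siMECOM libraries, against 448, 352, 346 and 266 CPM in the control libraries (log2 -2.27 ± 0.18), below all controls. IL6 and GDF15, described above, are members too. Without siMECOM replicate 1 the number called higher in this list was 3. Of 23 p53 target genes tested, 8 rose, 4 fell and 11 did not pass, with a median log2 fold change of 0.09. BTG2, an antiproliferative gene, was at 26.3 and 27.6 CPM in the siMECOM libraries, against 13.4, 11.3, 9.08 and 8.63 CPM in the control libraries (log2 1.37 ± 0.09), and the sestrin SESN1 was at 7.92 and 9.14 CPM in siMECOM, against 3.32 to 4.44 CPM in the controls (log2 1.11 ± 0.11). GDF15, above, had the largest decrease of the p53 list, and PLK3 and PHLDA3 fell by 0.50 and 0.46 on the log2 scale. BCL2 family genes were called in 20% of 15 tested, against 32.6% of all tested genes. Of the 15, 2 rose, 1 fell and 12 did not pass, with a median log2 fold change of -0.17. The number lower was 2 in 4 of the 6 fits that left out 1 library, 3 with DESeq2 size factors, the replicate block or no mitochondrially encoded genes, and 4 without the low-count filter. BCL2L1, which encodes the survival protein BCL-XL, was at 239 and 214 CPM in the siMECOM libraries, against 139, 138, 149 and 156 CPM in the control libraries (log2 0.64 ± 0.07). MCL1, another survival protein, rose by 0.36 ± 0.06, and the pro-apoptotic BID had -0.40 ± 0.07.

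Wnt response genes held 22 of 27 members tested, and 4 rose, 8 fell and 10 did not pass, with a median log2 fold change of -0.28. The ligand WNT7A was at 59.8 and 61.5 CPM in the siMECOM libraries, against 225, 218, 206 and 199 CPM in the control libraries (log2 -1.80 ± 0.08). NOTUM, a Wnt-inactivating enzyme and feedback target, was at 7.33 and 7.46 CPM in the siMECOM libraries, against 21.8, 19.97, 22.9 and 22.9 CPM in the control libraries (log2 -1.56 ± 0.15). TCF7, which overlaps the more abundant SKP1, was at 2.69 and 3.78 CPM in siMECOM, against 7.47 to 9.87 CPM in the controls. WNT11, a ligand of non-canonical Wnt signalling, was higher, at 2.58 and 4.01 CPM in siMECOM, against 0.424 to 0.782 CPM in the controls, as were the targets SP5, at 1.74 and 1.66 CPM in siMECOM, against 0.471 to 0.616 CPM in the controls, and LEF1, at 0.748 and 0.623 CPM in siMECOM, against 0.137 to 0.286 CPM in the controls. Without siMECOM replicate 2 the number called lower was 5.

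Among 21 Notch genes, 5 rose, 5 fell and 11 did not pass, with a median log2 fold change of 0.17. The target HEY2 was at 1.41 and 1.56 CPM in siMECOM, against 0.374 to 0.449 CPM in the controls, the glycosyltransferase LFNG at 10.9 and 12.2 CPM in siMECOM, against 3.16 to 4.18 CPM in the controls and the ligand JAG2 at 14.2 and 12.3 CPM in the siMECOM libraries, against 32.1, 30.1, 25.8 and 26.95 CPM in the control libraries (log2 -1.11 ± 0.09). The coactivator MAML2 rose by 0.48 ± 0.07. Of 14 EGF receptor family genes and ligands, 6 rose, 2 fell and 6 did not pass, with a median log2 fold change of 0.21. HBEGF, a ligand of EGFR and ERBB4, was at 62.1 and 73.2 CPM in the siMECOM libraries, against 24.5, 27.8, 28.2 and 30.7 CPM in the control libraries (log2 1.29 ± 0.09). Amphiregulin (AREG) was low, with 76 and 112 reads in siMECOM, against 16, 13, 7 and 26 in the controls, and its log2 fold change of 2.54 ± 0.32 was 3.16 without siNT2 replicate 2. The receptor ERBB3 was at 39.6 and 37.6 CPM in siMECOM, against 54.1 to 68.9 CPM in the controls, with an overlapping gene on the same strand. Of 28 MAPK feedback and immediate early genes, 6 rose, 6 fell and 16 did not pass, with a median log2 fold change of -0.08. EGR1 was at 97.8 and 86.8 CPM in siMECOM, against 49.7 to 57.2 CPM in the controls, and the feedback genes PHLDA1 and SPRY1 were at 4.82 and 5.96 CPM in siMECOM, against 8.98 to 11.6 CPM in the controls, and at 6.78 and 6.04 CPM in siMECOM, against 9.42 to 11.6 CPM in the controls. FGF genes were called in 28.6% of 14 tested, against 32.6% of all tested genes. Of the 14, 3 rose, 1 fell and 10 did not pass, with a median log2 fold change of -0.02. FGF9 was at 0.88 ± 0.17 and the receptor FGFR4 at -0.51 ± 0.08.

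YAP and TEAD targets, which respond to cell spreading and density, held 25 tested members, of which 10 rose, 4 fell and 11 did not pass, with a median log2 fold change of 0.06. CCN2, the connective tissue growth factor, was at 210.2 and 182 CPM in the siMECOM libraries, against 121, 98.6, 115 and 106 CPM in the control libraries (log2 0.84 ± 0.11). ANKRD1 was at 403 and 453 CPM in the siMECOM libraries, against 325, 304, 219 and 235 CPM in the control libraries (log2 0.68 ± 0.07), although the control pools differed from each other. The GTPase-activating gene DLC1 rose by 1.20 ± 0.14. IGFBP3, above, and the ectonucleotidase NT5E, at 17.1 and 17.0 CPM in siMECOM, against 27.6 to 31.5 CPM in the controls, were lower. Without siMECOM replicate 2 the number called higher was 6, as it was against siNT1 alone.

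Of 19 genes of retinoic acid synthesis and handling, 4 rose, 4 fell and 11 did not pass, with a median log2 fold change of 0.03. Both counts were 2 without siMECOM replicate 1. CYP26A1, the enzyme that degrades retinoic acid and a direct target of its receptors, was at 4.07 and 5.03 CPM in the siMECOM libraries, against 0.424, 0.508, 0.321 and 0.440 CPM in the control libraries (log2 3.43 ± 0.22). The receptor RARG was at 15.1 and 15.2 CPM in siMECOM, against 31.3 to 34.9 CPM in the controls and the retinol importer STRA6 at 2.71 and 3.62 CPM in siMECOM, against 5.29 to 7.58 CPM in the controls. HOX genes were called in 25% of 28 tested, of 37 listed, against 32.6% of all tested genes. Of the 28, 4 rose, 3 fell and 21 did not pass, with a median log2 fold change of 0.01. HOXB2 was at 11.03 and 11.1 CPM in siMECOM, against 15.8 to 17.0 CPM in the controls. The number of HOX genes called lower was 1 against siNT2 alone and without siMECOM replicate 2. HOXC6 and HOXC9, which overlap on the same strand, rose by 0.60 ± 0.14 and 0.71 ± 0.16. SOX genes were called in 30.8% of 13 tested, also against 32.6% of all tested genes. Of the 13, 4 rose, 0 fell and 9 did not pass, with a median log2 fold change of 0.26. The partners SOX5 and SOX6, which act together in cartilage, were at 12.6 and 15.5 CPM in the siMECOM libraries, against 4.17, 4.90, 4.85 and 4.47 CPM in the control libraries (log2 1.61 ± 0.12), and at 4.14 and 4.70 CPM in the siMECOM libraries, against 0.566, 0.782, 0.521 and 0.836 CPM in the control libraries (log2 2.70 ± 0.19). SOX6 overlaps the far more abundant C11orf58.

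Genes tied to EVI1 by earlier knowledge were examined separately. Corepressor and chromatin partner genes were called in 28% of 25 tested, against 32.6% of all tested genes. Of the 25, 4 rose, 3 fell and 18 did not pass, with a median log2 fold change of -0.11. The number lower was 5 without siNT2 replicate 2 or with the replicate number as a block, 6 without mitochondrially encoded genes and 8 without the low-count filter, so which direction held more calls depended on the setting. RUNX1, a haematopoietic factor known to interact with EVI1, was at 44.7 and 51.5 CPM in the siMECOM libraries, against 19.4, 22.6, 19.2 and 20.7 CPM in the control libraries (log2 1.23 ± 0.11). The demethylase KDM1A was at 230.4 and 232 CPM in the siMECOM libraries, against 119, 117, 125 and 116 CPM in the control libraries (log2 0.95 ± 0.06), and the AP-1 gene FOS was at 3.76 and 3.12 CPM in siMECOM, against 1.96 to 2.09 CPM in the controls. SMAD3, above, the methyltransferase DNMT3B, at 23.2 and 21.2 CPM in siMECOM, against 35.1 to 40.02 CPM in the controls, and HDAC1, at 108 and 112 CPM in siMECOM, against 123 to 147 CPM in the controls, were lower. Of 20 stem cell and leukaemia genes associated with EVI1, 8 rose, 1 fell and 11 did not pass, with a median log2 fold change of 0.23. KIT, the stem cell factor receptor, was at 2.05 and 1.79 CPM in the siMECOM libraries, against 0.778, 0.743, 0.240 and 0.418 CPM in the control libraries. Its log2 fold change was 1.94 ± 0.26, or 1.33 against siNT1 alone and 2.55 against siNT2 alone. The integrin subunit ITGA2 rose by 0.75 ± 0.18, a call lost against siNT1 alone and without siMECOM replicate 2, and HOXA9 fell by 0.36 on the log2 scale, a call lost against siNT2 alone, without siMECOM replicate 2 and without siNT1 replicate 1. In this list the members called higher were 5 when either siMECOM library was left out.

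Other PRDM family genes, which share the PR domain, numbered 11 tested, of which 3 rose, 1 fell and 7 did not pass, with a median log2 fold change of 0.18. PRDM2 was at 53.8 and 56.5 CPM in siMECOM, against 42.5 to 45.3 CPM in the controls, and PRDM1, with 19 and 15 reads in siMECOM, against 6, 5, 1 and 8 in the controls, lost its call against siNT1 alone, without siMECOM replicate 1 and without siNT2 replicate 1. The cofactor gene ZFPM2 was at 0.836 and 0.818 CPM in siMECOM, against 1.39 to 1.88 CPM in the controls. Of 23 of 33 genes near MECOM on 3q26 that were tested, 8 rose, 2 fell and 13 did not pass, with a median log2 fold change of 0.06. NCEH1, a cholesterol ester hydrolase, was at 7.90 and 6.70 CPM in the siMECOM libraries, against 20.9, 19.4, 20.3 and 22.7 CPM in the control libraries (log2 -1.51 ± 0.12), and ECT2, a guanine nucleotide exchange factor of cytokinesis, was at 82.9 and 82.8 CPM in siMECOM, against 95.7 to 117 CPM in the controls. LRRC31 was higher, at 2.16 and 2.26 CPM in siMECOM, against 0.424 to 0.681 CPM in the controls, and TNIK was barely detected, with 14 and 15 reads in siMECOM, against 2, 3, 0 and 2 in the controls. The neighbours called higher were 2 without siMECOM replicate 2, 5 without either siNT1 library and 4 with DESeq2 or against siNT2 alone.

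Genes that set siMECOM apart from the other single knockdowns were found by testing siMECOM directly against siPAX8, siSOX17 and siWT1 as well as against the controls. These comparison groups have limits. WT1 averaged 0.394 CPM in the controls, so the target of siWT1 was near the floor. MECOM was at 45.6 and 43.6 CPM in siSOX17, against a mean of 129.9 CPM in the controls, so siSOX17 also held less MECOM. In all 4 comparisons 747 genes (3.55% of those tested) were higher and 740 (3.52%) were lower in siMECOM. Without siMECOM replicate 2 the total was 910. Among protein-coding genes that averaged 1 or more in log2 CPM over all libraries, those with the largest smallest difference were KRT13, OXTR, ABCA4, C6orf15, DCBLD2, FN1, ST6GAL2 and CDH2 among increases, and ALPP, TAF3, FAM20A, IL6, MUC1, GDF15, LDB3 and MECOM among decreases. For OXTR the log2 fold changes were 3.80 against siPAX8, 2.87 against siSOX17 and 3.79 against siWT1. For TAF3 they were -2.80 against siPAX8, -2.49 against siSOX17 and -2.82 against siWT1. For FN1 they were 4.74 against siPAX8, 1.92 against siSOX17 and 5.44 against siWT1, and siSOX17 was the nearest group. LDB3, a protein of the muscle Z-disc, was at 0.726 and 0.818 CPM in the siMECOM libraries, against 3.32, 3.07, 3.27 and 3.61 CPM in the control libraries, and its log2 fold changes were -4.78 against siPAX8, -4.39 against siSOX17 and -1.84 against siWT1. CYP26A1, whose average was below this minimum, had a smallest difference of 2.63. The largest adjusted p over these 16 genes and the 4 comparisons was 1.44e-05.

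Other leading genes did not stand apart from every other knockdown. ABAT rose against the controls, yet its log2 fold changes were -0.90 against siPAX8, -1.49 against siSOX17 and 1.63 against siWT1. SLCO2A1 had -0.16 against siPAX8, 0.71 against siSOX17 and 4.78 against siWT1. FAM107A had -0.48 against siPAX8, -3.28 against siSOX17 and -2.67 against siWT1, so siPAX8 was the nearest group. MECOM itself was lower in siMECOM than in every other single knockdown, at -2.95 against siPAX8, -1.82 against siSOX17 and -3.01 against siWT1.

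**Figure D5:**
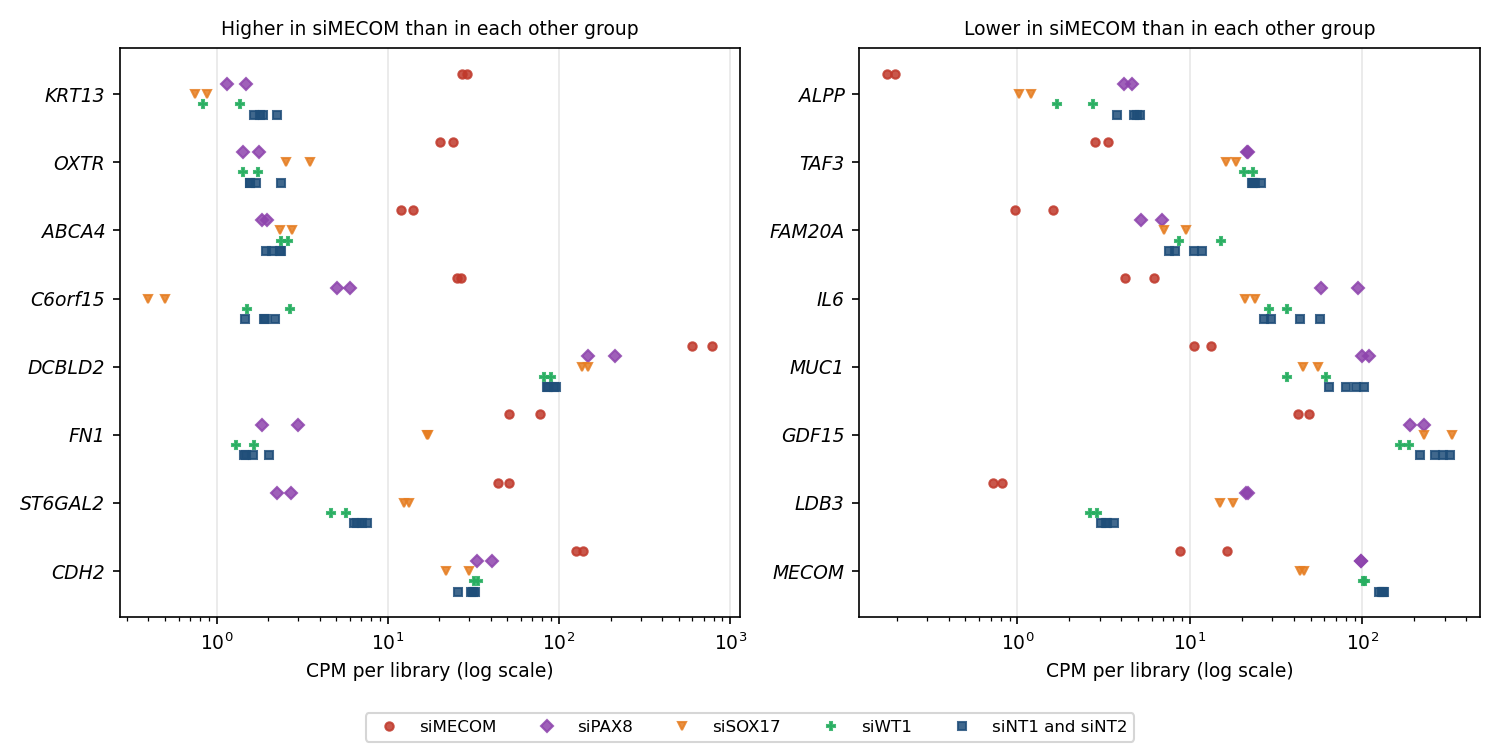
Normalised read counts (CPM) per library (x axis, log scale) of the 8 genes with the largest increases (left) and decreases (right) in siMECOM relative to every other single knockdown and the controls, among protein-coding genes that averaged 1 or more in log2 CPM, with a point for each library of siMECOM, siPAX8, siSOX17, siWT1 and the 4 controls. The separation is what the choice of genes required, and the plot shows how far each other group lay from the controls.

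Markers of other cell types and technical lists complete the description. Of 10 of 16 squamous keratinocyte markers tested, 4 rose, 4 fell and 2 did not pass, with a median log2 fold change of 0.25. The number lower was 1 without siMECOM replicate 2 and 2 against siNT2 alone. Their summed level was 361 to 449 CPM in siMECOM, against 407 to 586 CPM in the controls. KRT13 and KRT6A, above, and TP63, the master factor of squamous epithelium, were among the increases, and TP63 was low, with 28 and 35 reads in siMECOM, against 10, 10, 12 and 12 in the controls. The stratifin gene SFN was at 63.4 and 60.1 CPM in siMECOM, against 86.3 to 115 CPM in the controls. SPRR1A, SPRR1B and SPRR3 had 0 reads in all 6 libraries, and DSG3 had 1 and 0 reads in siMECOM and 0 in every control. Of 9 of 12 fibroblast markers tested, 2 rose, 2 fell and 5 did not pass, with a median log2 fold change of 0.30, with a summed level of 59.7 to 64.0 CPM in siMECOM, against 86.5 to 104.7 CPM in the controls. Of 9 of 12 endothelial markers tested, 1 rose, 2 fell and 6 did not pass, with a median log2 fold change of -0.11, at 26.3 to 27.3 CPM in siMECOM, against 25.2 to 28.4 CPM in the controls. Of 5 of 16 leukocyte markers tested, 1 rose, 1 fell and 3 did not pass, with a median log2 fold change of 0.35, at 18.89 to 18.94 CPM in siMECOM, against 22.46 to 27.01 CPM in the controls. The members called were CSF1R, at 6.41 and 5.57 CPM in siMECOM, against 3.43 to 4.29 CPM in the controls, and CD68, at 11.6 and 12.3 CPM in siMECOM, against 18.3 to 22.0 CPM in the controls, which overlaps a more abundant gene. The defining leukocyte gene PTPRC had 2 and 3 reads in siMECOM, against 3, 6, 1 and 0 in the controls.

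All 13 mitochondrially encoded protein genes were called, and 13 rose, 0 fell and 0 did not pass, with a median log2 fold change of 0.66. MT-CYB was at 5232 and 4449 CPM in the siMECOM libraries, against 3126, 2856, 2659 and 3176 CPM in the control libraries (log2 0.71 ± 0.09). MT-ND1 rose by 0.69 ± 0.10 and MT-ND4 by 0.67 ± 0.09. With these genes left out before scaling, 3143 genes were higher and 3765 lower. Genes of the RNA interference machinery were called in 23.1% of 13 tested, against 32.6% of all tested genes. Of the 13, 3 rose, 0 fell and 10 did not pass, with a median log2 fold change of 0.00. The called members were AGO4, at 8.98 and 9.64 CPM in siMECOM, against 5.50 to 6.57 CPM in the controls, TNRC6B, with 0.49 ± 0.07, and TNRC6C, with 0.67 ± 0.10.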

How the data were processed

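RNA-seq libraries were made from total RNA by a standard BGI protocol, per the labels' protocols. The deposited table holds raw read counts per gene, as whole numbers. Per the submitters' processing notes, STAR 2.5.1b, featureCounts 1.6.3 and build hg38 were used, and the strand setting and annotation release are not given in the sources used here, so genes that overlap on either strand may share reads. The 58219 genes were named from GENCODE 29, which matched 57881 of them by identifier. Of 184 genes named in the text, 56 overlap another tested gene, and not all of these overlaps are marked.

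Low genes were removed by edgeR 4.0.16 (filterByExpr, with a minimum count of 10 and a minimum total of 15), and libraries were scaled by TMM. An edgeR quasi-likelihood model in R 4.3.3 held a coefficient for each of 7 groups of 2 libraries, with 7 residual degrees of freedom and a biological coefficient of variation of 7.57%. siMECOM was set against the mean of siNT1 and siNT2, and against siPAX8, siSOX17 and siWT1. Benjamini-Hochberg adjustment of p-values ran over all 21032 tested genes, and a gene was called under 0.05. A standard error is that of the log2 fold change, from the quasi-likelihood F. Whether the 2 libraries of a group are separate transfections is not stated in the labels, so p-values measure only the spread between these libraries. All pairs of libraries differed by more than sampling noise (chi-square per degree of freedom 10.7 to 20.6). The fit was tested on simulated counts with known changes. It recovered 66% of 2-fold and 94% of 4-fold changes, with 5 false calls among 20832 unchanged genes. Far fewer genes were changed there than the 6857 called here. Scaling and error control under so broad a response were therefore not checked.

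The members and the 40 gene lists, drawn from general knowledge, were chosen with earlier results of these data known. The genes named were MECOM, PAX8, SOX17 and WT1; the 15 largest called increases and 15 largest decreases among protein-coding genes that averaged 1 or more in log2 CPM and whose siMECOM and control libraries did not overlap; at most 3 called members of each list in each direction; and, among protein-coding genes with the same minimum average, the 8 in each direction with the largest smallest difference over 4 comparisons. Fewer are named in places, some genes are not reported here, and some that lost their call under an alternative were left out. ASNS, CDH1, CXCL2, CXCL3, GBP2, GBP3, ID1, ID3, KRT7, KRT8, KRT18, EPCAM and MSLN were named outside this rule. Promoter sequences are from RefSeq, and 12861 tested genes had one. The alternatives were other scalings and filters, DESeq2 1.42.0, each control pool alone, a robust dispersion, a replicate block, a fit of 6 libraries, a fit without mitochondrially encoded genes, and leaving out each library in turn.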

Additional observations from a re-analysis of the deposited data

Results flagged for a closer look

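Among the 184 genes named, 8 had a control library far from the other 3 (a gap beyond Dixon's 95% critical value for 4 samples), and chance gives this in about 1 in 20 groups. For OXTR the siNT2 replicate 1 library was highest, at 2.38 CPM against 1.56 to 1.69 CPM in the other controls. The siNT2 replicate 1 library was also highest for ZFPM2, at 1.88 CPM against 1.39 to 1.45 CPM. For NOG siNT2 replicate 2 was highest, at 0.0880 CPM against 0.0195 to 0.0236 CPM. The siNT2 replicate 2 library was lowest for CENPF, at 161 CPM against 167 to 168 CPM, and for ECT2, at 95.7 CPM against 113 to 117 CPM. For LLGL2 and OAS1 siNT1 replicate 1 was highest, at 72.0 CPM against 62.2 to 63.6 CPM, and at 10.4 CPM against 8.36 to 8.54 CPM. For FADS1 siNT1 replicate 2 was highest, at 181 CPM against 153.5 to 158 CPM. In all 8 genes both siMECOM libraries lay outside the range of the 4 controls. Over all tested genes both lay above that range in 25% and below it in 24.5%.

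The control pools differed from each other in 3 of the named genes (edgeR quasi-likelihood test, siNT1 minus siNT2). The log2 difference was 1.45 for KRT6A (adjusted p = 0.0174), 0.47 for ANKRD1 (adjusted p = 0.0191) and -0.93 for GREM1 (adjusted p = 0.0101). For KRT6A and ANKRD1 siMECOM lay above both pools, and for GREM1 it overlapped siNT1.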

How the results depend on the processing

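Of the 6857 calls, 57.8% were shared without siMECOM replicate 2, 68.2% without siMECOM replicate 1 and 82.4 to 86.1% without a control library. Of 178 called genes that are named, 9 lost the call under an alternative (CXCL3, EPCAM, GBP2, GREM1, HMOX1, HOXA9, ITGA2, MSLN and PRDM1), and since others that lost it were not named, this count is no measure of stability. GREM1 reversed to 0.045 against siNT1 alone. The 6857 calls became 6222 with DESeq2, 6896 with its size factors, 6986 without a filter, 5568 against siNT1 alone, 5610 against siNT2 alone and 6908 without mitochondrially encoded genes. The main fit had 3467 higher and 3390 lower. There were 2791 higher and 3431 lower with DESeq2, 3256 and 3640 with its size factors, and 3024 and 3962 without a filter. The background shares of 16.5% higher and 16.1% lower therefore belong to the main fit. With a stricter filter, which left fewer genes, 901 genes passed 2-fold in place of 1419. Leaving out 1 library gave 4096 to 6359 calls, 2198 to 3198 higher, 1898 to 3506 lower, 1154 to 1446 at 2-fold, 910 to 1472 in all 4 comparisons, 315 to 411 list members in place of 416, and -3.89 to -2.99 for MECOM. The lowest counts came without siMECOM replicate 2, where the lone siMECOM library is assumed to vary like the other groups. The count over 4 comparisons could not be had with 6 libraries. Labels do not say that replicate numbers mark a batch, and same-numbered libraries deviated together weakly (r of -0.02 to 0.11 among siMECOM, siNT1 and siNT2). With the replicate number as a block 7595 genes were called, 6855 of them shared with the 6857, and no named gene changed its call. With 2 libraries a group, small changes of low genes were not detectable.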

Other observations

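Promoters of all tested genes were searched, after the gene values had been seen, for letters known to be bound by EVI1, on both strands of the 250 bases before the RefSeq start. The ETS-like GAAGATGAG matched in 0.388% of 2319 promoters of genes called higher, in 0.211% of 2365 of genes called lower and in 0.330% of 8177 of genes that did not pass. Those shares are only 9, 5 and 27 promoters, and their difference was not tested. The GATA-like GACAAGATA matched in 0.0431% of promoters of higher genes, in 0.0423% of lower genes and in 0.0245% of genes that did not pass, which is 1, 1 and 2 promoters. The palindrome GGCGCC, a SMAD-like motif of BMP targets, matched in 25.9% of promoters of higher genes, 35.3% of lower genes and 29.7% of the rest, and in 2 of 12 BMP and ID genes called higher. No match in this window says nothing of binding elsewhere.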
